A study of Saccharomyces eubayanus and Saccharomyces cerevisiae x Saccharomyces eubayanus with 20 samples.

Results

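The glucose sensing pathway that ends at the repressor Rgt1 was followed through 8 genes, SNF3, RGT2, MTH1, STD1, RGT1, YCK1, YCK2 and GRR1, in lager yeast relatives grown on glucose, maltose or maltotriose. The genes were taken by name from every table of normalized transcript levels, where they are 8 of 5513 gene models in the S. eubayanus strains and 16 of 11292 in the hybrid, which carries 1 copy set from each parent. RNA sequencing data of 20 libraries were available, 2 cultures for each of 10 groups, all grown in shake flasks on synthetic medium with 20 g/L of 1 sugar and sampled in mid-exponential phase. CDFM21L.1, a Himalayan isolate of S. eubayanus that does not grow on maltose or maltotriose, was sampled on glucose only. IMX1765 is CDFM21L.1 in which ScMAL13, a maltose regulator of S. cerevisiae expressed from the constitutive ScPGK1 promoter, replaces SeSGA1. IMX1939 carries the same cassette and also lacks the transporter gene SeMALT1. HTS020 is a laboratory hybrid of a spore of S. cerevisiae CBC-1 with a spore of CDFM21L.1, unmodified, and it grows on all 3 sugars. IMX1765, IMX1939 and HTS020 were each sampled on glucose, maltose and maltotriose. For 3 hybrid libraries, 1 on maltose and both on maltotriose, the description names another medium than the title and the carbon source, and the latter were used.

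In S. cerevisiae, Snf3 and Rgt2 are plasma membrane proteins that resemble hexose transporters but serve as sensors, Snf3 for low and Rgt2 for high glucose. When glucose binds, the membrane-bound casein kinases Yck1 and Yck2 phosphorylate the paralogs Mth1 and Std1, which are then marked by the ubiquitin ligase containing the F-box protein Grr1 and degraded. Without Mth1 and Std1, Rgt1 no longer recruits the corepressor Cyc8-Tup1 to the promoters of hexose transporter (HXT) genes, and these are transcribed. Maltose and maltotriose enter the cell through proton symporters and are hydrolysed to glucose inside, where the sensors do not face it. The sensing genes are themselves under transcriptional control in S. cerevisiae: SNF3 and MTH1 are repressed on glucose through Mig1, and STD1 is repressed by Rgt1. These roles are background from S. cerevisiae and were not measured here.

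The upstream sequences of STD1, SNF3 and MTH1, the genes of the pathway whose control by Rgt1 or Mig1 is described above, show which of the letters bound by these repressors lie before each. The sequences are from S. cerevisiae S288C (RefSeq, build R64), which is neither parent of the hybrid, and were searched over 800 bases before the start codon on both strands. The letters searched were CGGANNA for Rgt1 and GCGGGG or GTGGGG or CCGGGG or CTGGGG for Mig1, capitals mark them, and 8 bases are given on each side.
STD1, Rgt1 letters, chr15:417936-417958: tgaaaacaCGGAAAAtcttttag
STD1, Rgt1 letters, chr15:417897-417919: ttccataaCGGAAAAattccagg
SNF3, Mig1 letters, chr4:111257-111278: gcaaatctCCGGGGaaatttta
SNF3, Mig1 letters, chr4:111333-111354: tctataatCTGGGGaaattcag
MTH1, Mig1 letters on the other strand, chr4:1016312-1016333: agttatcaCCCCGCcccctcct
MTH1, Mig1 letters, chr4:1016159-1016180: aaaaaggtCCGGGGaaatggag
MTH1, Mig1 letters on the other strand, chr4:1016118-1016139: gatgactgCCCCACacatttcc
MTH1, Rgt1 letters, chr4:1016328-1016350: ttgtaaagCGGAAAAaaagttat
All are written 5′ to 3′ on the strand of their gene, the minus strand for STD1 and MTH1 and the plus strand for SNF3. The STD1 window held 2 matches to the Rgt1 letters and none to the Mig1 letters, with the matches 263 and 224 bases before the start codon. The SNF3 window was the reverse, with none and 2, and the Mig1 matches lay 310 and 234 bases before the start codon. MTH1 had both kinds, 4 matches to the Rgt1 letters, of which 1 is printed, and 3 to the Mig1 letters. RGT1 had 3 and none, YCK1 had 1 and 1, YCK2 had 1 and none, and neither was found before RGT2 or GRR1. Matches of the 2 kinds did not overlap in any of these 8 windows. Such matches are common, since the Rgt1 letters occur in 58.3% of the 6003 windows of this length and the Mig1 letters in 35.8%, with 2 or more in 23.4% and 8.68%. A match is thus a description of the letters and not a binding site.

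In the CDFM21L.1 assembly, SNF3 is the model at chr4:108996-111653 and RGT2 that at chr4:209277-211586, both on the plus strand. MTH1 lies at chr2:796299-797600, STD1 at chr8:187185-188513, YCK1 at chr15:587464-589098, YCK2 at chr14:342574-344256 and GRR1 at chr10:561843-565286, all on the minus strand, and RGT1 at chr11:354935-358582 on the plus strand. In the CBC-1 assembly the STD1 model, at chr15:400639-401838, is 1200 bases long against 1329 in CDFM21L.1, and its level per length refers to that shorter model. Reads that mapped ambiguously had been removed by the authors, which leaves out sequence shared by both copies of a gene in the hybrid or by paralogs such as YCK1 and YCK2.

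Expression is given in FPKM, read fragments scaled for gene length and library size, with the values of culture 1 and culture 2 in that order. The depth was between 16874233 and 27175322 reads on genes in 19 libraries, so that 1 read on 1000 bases amounted to at most 0.0593 FPKM. The first maltotriose culture of IMX1765 had 318922 reads, 1.71% of the median. It also went against its label, since the glucose-induced transporter gene HXT3 stood at 949 FPKM in it (516 reads), against 3.03 FPKM in the other maltotriose culture and 1031 to 1556 FPKM on glucose in the S. eubayanus strains. This library was left out of the fit for its low depth. Each result of that fit on IMX1765 and maltotriose rests on a single culture, assumed to vary like the other groups. ScMAL13 was as labelled, at 0.104 to 0.214 FPKM in CDFM21L.1 and 331 to 915 FPKM in both engineered strains. SeMALT1 stood at up to 1.23 FPKM in IMX1939, given here without its level in the undeleted strains. Groups were compared with limma on log2(FPKM + 1), a scale that understates changes of genes near or under 1 FPKM. Benjamini-Hochberg adjustment of the p values covered all genes tested. A gene is said to rise or fall where the adjusted p was under 0.05. All 8 genes and all 16 hybrid copies passed the filter of a mean of 1 FPKM. The comparisons of maltose and of maltotriose with glucose share their glucose cultures, and are given side by side without a test of their overlap. Levels refer to the RNA of a whole culture, in which a change in every cell and a larger one in some cells cannot be told apart.

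In glucose-grown CDFM21L.1, levels per gene length were highest for the kinase genes YCK2 (121 and 133 FPKM) and YCK1 (61.1 and 69.0 FPKM). STD1 (44.6 and 50.9 FPKM) and MTH1 (38.6 and 41.8 FPKM) followed. The remaining genes were lower, with the low-glucose sensor SNF3 (8.22 and 8.50 FPKM) at the bottom, under RGT1 (12.9 and 12.3 FPKM). Among neighbours in this order, the cultures overlapped only for GRR1 (15.5 and 15.6 FPKM) and RGT2 (15.8 and 14.1 FPKM). On maltose the order was different. In IMX1765, STD1 was last of the 8 on maltose, MTH1 overlapped with YCK2, and SNF3 lay above RGT1, GRR1 and RGT2, as the plot of levels in the S. eubayanus strains shows.

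**Figure D1:**
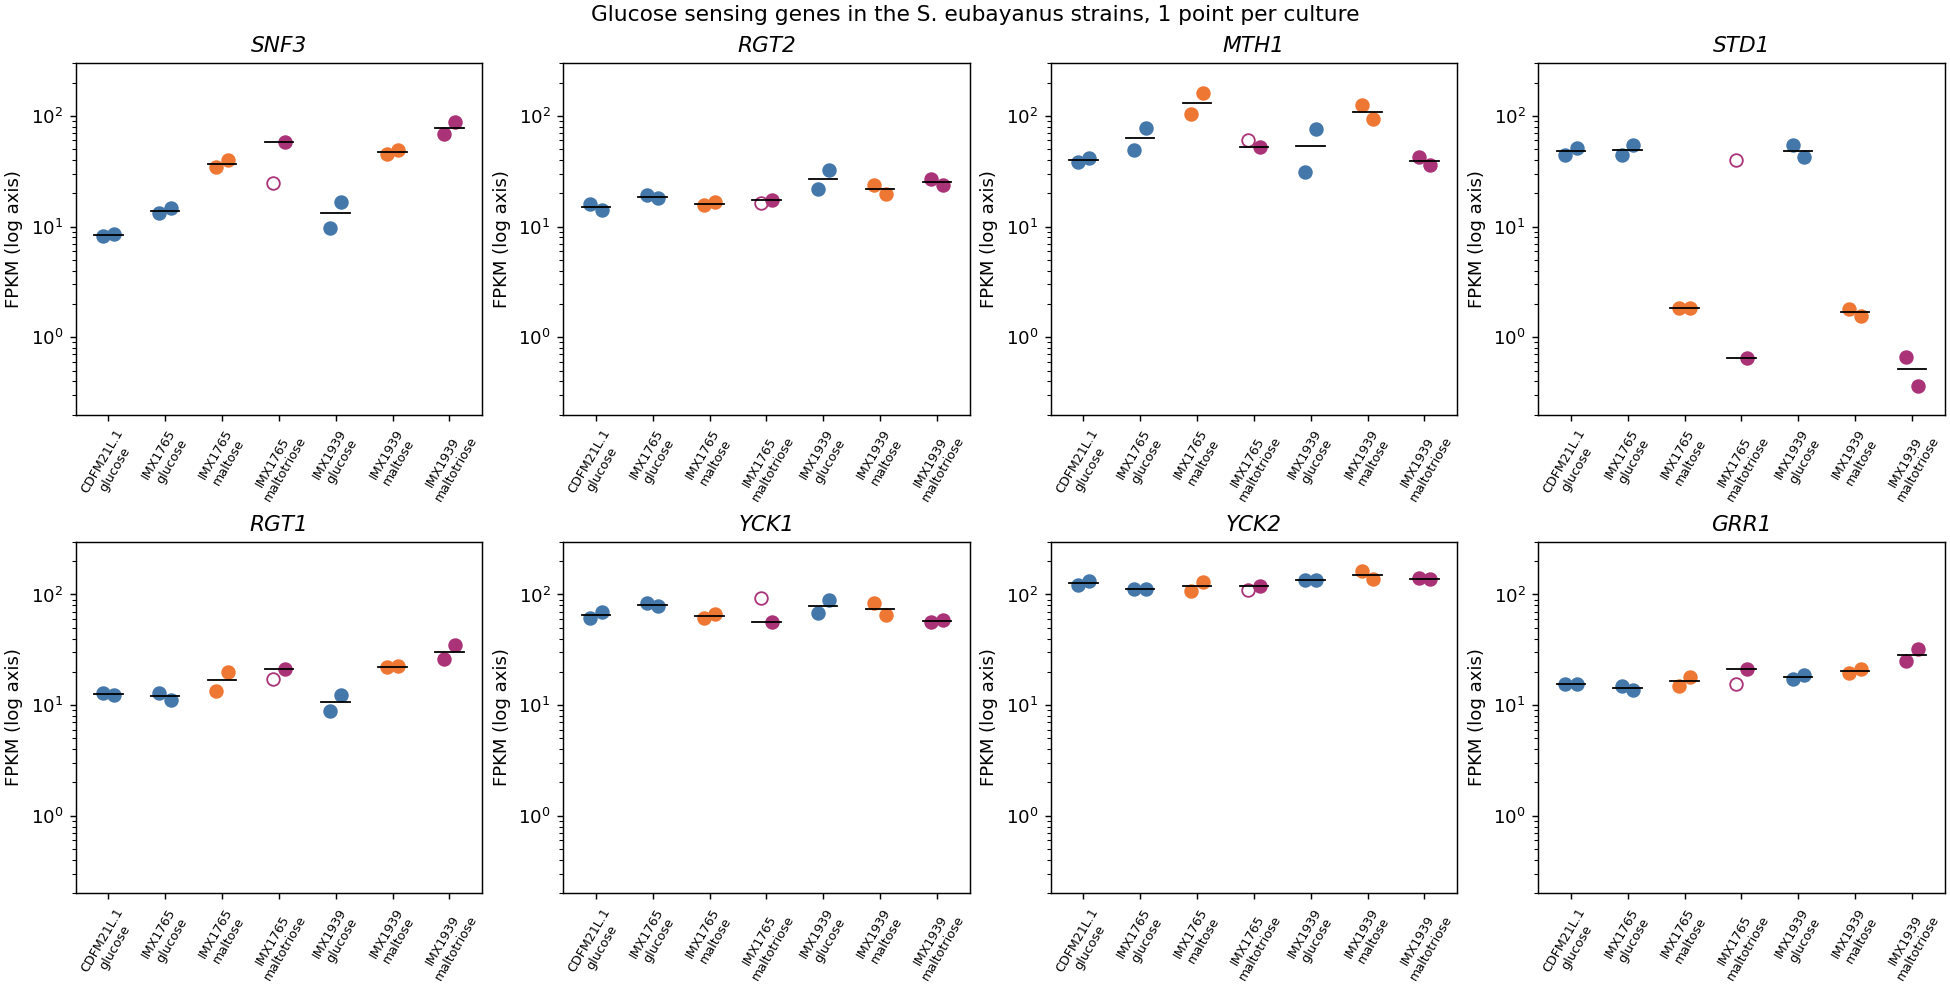
Levels of the 8 genes in S. eubayanus strains (FPKM, log axis), with 1 point per culture, a bar at the mean of each group and the library of 318922 reads marked apart. STD1 stands between 42.6 and 54.7 FPKM in the 6 glucose cultures and between 0.359 and 1.85 FPKM in the 7 deep maltose and maltotriose cultures, while SNF3 has its highest values on maltotriose.

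STD1, which encodes the Mth1 paralog that helps Rgt1 repress, was the gene that differed most between glucose and the other sugars. In IMX1765 its level was 44.0 and 54.5 FPKM on glucose and 1.85 and 1.83 FPKM on maltose, where it rested on 62 and 54 reads. In IMX1939 it was 54.7 and 42.6 FPKM on glucose, against 1.80 and 1.55 FPKM on maltose and 0.668 and 0.359 FPKM on maltotriose, the last from 16 and 10 reads. The groups on glucose and on either other sugar were far apart, and the mean on maltose was lower than on glucose by 26.8 ± 4.06-fold in IMX1765 and 29.1 ± 6.02-fold in IMX1939 (propagated SD, n = 2 and 2). On maltotriose the mean of IMX1939 was lower by 94.8 ± 43.7-fold. The falls on the log2 scale were -4.14 ± 0.18 (SE, adjusted p = 1.3e-06) and -4.21 ± 0.18 (adjusted p = 6.8e-07) on maltose, and -5.03 ± 0.18 (adjusted p = 1.5e-07) for IMX1939 on maltotriose. These 3 falls kept their side of the threshold under each of 25 alternatives, including each culture left out.

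The maltotriose cultures of IMX1765 disagreed on STD1. The deep library held 0.647 FPKM (16 reads), 76.1-fold below the glucose mean, and the shallow one 40.1 FPKM (17 reads), just under the 42.6 to 54.7 FPKM of the 6 glucose cultures. With the deep library alone the fall was -4.92 ± 0.22 (SE, limma adjusted p = 1.9e-06), and with both it was -2.60 ± 1.07 (adjusted p = 0.18). SNF3 was 24.8 FPKM (21 reads) in the shallow library and 58.0 FPKM in the deep one, against 13.1 and 14.8 FPKM on glucose. Its rise was 1.98 ± 0.28 (adjusted p = 0.0012) with the deep library and 1.38 ± 0.35 (adjusted p = 0.049) with both. Only these 2 of the 8 genes were called in IMX1765 on maltotriose, where 28.7% of all 5406 genes tested were. The number of genes called depended on the fit, among all genes as among the 8. With all 14 libraries, and thus both maltotriose cultures, 1 of the 8 and 334 of all genes were called.

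SNF3 rose wherever glucose was replaced. It stood at 34.2 and 39.9 FPKM on maltose in IMX1765. In IMX1939 it was 9.76 and 16.7 FPKM on glucose, against 45.2 and 49.4 FPKM on maltose and 68.2 and 88.1 FPKM on maltotriose. Every maltose or maltotriose culture at full depth lay above every glucose culture. The means on maltose were higher than on glucose by 2.65 ± 0.36-fold in IMX1765 and 3.58 ± 1.34-fold in IMX1939, and that of IMX1939 on maltotriose by 5.91 ± 2.44-fold. The rises on the log2 scale were 1.35 ± 0.23 (SE, adjusted p = 0.0028), 1.81 ± 0.23 (adjusted p = 0.00033) and 2.51 ± 0.23 (adjusted p = 3.6e-05), and none was lost under 25 alternatives. Between the sugars, the difference of 0.70 ± 0.23 for maltotriose against maltose in IMX1939 had an adjusted p of 0.067. RGT2, the gene of the other sensor, differed little by sugar. In IMX1765 it was 19.1 and 18.2 FPKM on glucose and 15.6 and 16.6 FPKM on maltose. In IMX1939 it was 21.9 and 32.3 FPKM on glucose, against 23.8 and 19.6 FPKM on maltose and 26.7 and 23.8 FPKM on maltotriose. None of its sugar comparisons in these strains passed the test, with log2 values between -0.29 and 0.22.

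MTH1 did not go with its paralog STD1. Its level was 49.2 and 78.0 FPKM on glucose and 105 and 160 FPKM on maltose in IMX1765. In IMX1939 it was 31.0 and 76.5 FPKM on glucose, against 124 and 93.9 FPKM on maltose and 42.3 and 36.0 FPKM on maltotriose. The maltose cultures of both strains lay above all glucose cultures, but cultures of 1 group differed by up to 2.47-fold, on glucose in IMX1939. The differences between maltose and glucose, 1.05 ± 0.40 (SE, adjusted p = 0.11) and 1.13 ± 0.40 (adjusted p = 0.066) on the log2 scale, did not pass the test, the former doing so when only the groups compared were fitted (adjusted p = 0.026). Between maltotriose and maltose, MTH1 in IMX1939 fell by 1.45 on the log2 scale (SE 0.40, adjusted p = 0.045), a 2.79 ± 0.63-fold lower mean. This call was weak: it was lost under 11 of 25 alternatives, among them the fit of only the groups compared (adjusted p up to 0.26 over the 25), and 9 of the 11 left out 1 culture. STD1 also fell between these sugars, by 0.83 (SE 0.18, adjusted p = 0.026), from 45 and 45 reads to 16 and 10 reads, and lost the call under 6 of 25 alternatives, among them leaving out the first maltose culture (adjusted p = 0.17) or the second maltotriose culture (adjusted p = 0.15).

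RGT1, encoding the repressor itself, was 12.9 and 11.0 FPKM on glucose and 13.5 and 20.0 FPKM on maltose in IMX1765, a difference of 0.43 ± 0.23 on the log2 scale that did not pass the test (adjusted p = 0.24). In IMX1939 it was 8.82 and 12.4 FPKM on glucose, against 22.0 and 22.5 FPKM on maltose and 25.9 and 34.6 FPKM on maltotriose. The groups of IMX1939 did not overlap. RGT1 rose there by 1.02 ± 0.23 on maltose (SE, adjusted p = 0.0090) and by 1.43 ± 0.23 on maltotriose (adjusted p = 0.00087), or 2.10 ± 0.50-fold and 2.85 ± 0.89-fold in mean FPKM. Without the first glucose culture of IMX1939 the maltose value was 0.80 (adjusted p = 0.063), whereas the maltotriose rise was kept under each of 25 alternatives. The strains did not differ in this response beyond the error, with 0.59 ± 0.32 for IMX1939 minus IMX1765 on maltose (adjusted p = 0.62).

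The genes of the kinases and of the F-box protein differed between sugars by at most 0.64 on the log2 scale. YCK2 was between 107 and 162 FPKM in all 13 deep S. eubayanus cultures, and its sugar comparisons gave log2 values from -0.10 to 0.13, none past the test. YCK1 was 83.2 and 78.5 FPKM on glucose and 61.7 and 67.1 FPKM on maltose in IMX1765. In IMX1939 it was 67.6 and 89.7 FPKM on glucose, against 82.9 and 64.7 FPKM on maltose and 56.7 and 58.8 FPKM on maltotriose. The cultures did not overlap with glucose for IMX1765 on maltose (-0.32 ± 0.17, adjusted p = 0.24) and IMX1939 on maltotriose (-0.43 ± 0.17, adjusted p = 0.057), but did for IMX1939 on maltose (-0.09 ± 0.17). None of these passed the test, although the maltotriose value did so after rescaling of the libraries (-0.48, adjusted p = 0.030). GRR1 in IMX1765 was 14.7 and 13.6 FPKM on glucose and 14.8 and 18.1 FPKM on maltose (0.20 ± 0.16, adjusted p = 0.46). It was 17.2 and 18.6 FPKM on glucose, against 19.4 and 21.2 FPKM on maltose and 24.9 and 32.2 FPKM on maltotriose in IMX1939. GRR1 rose there on maltotriose by 0.64 ± 0.16 (adjusted p = 0.0090), a mean 1.6-fold higher (propagated SD 0.30), and lost the call without the first glucose culture (adjusted p = 0.052) or the second maltotriose culture (adjusted p = 0.060).

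Counted over the 8 genes, IMX1765 on maltose had 1 that rose and 1 that fell, against a background of 17.9% of 5406 genes called in either direction. IMX1939 on maltose had 2 that rose and 1 that fell, against 26.1%, and on maltotriose 3 that rose and 1 that fell, against 52.3%. Between maltotriose and maltose 2 of the 8 fell in IMX1939, against 13.5% of all genes, and in the fit of only these groups none was called. The numbers called are to be read against these shares, and they give no result about the 8 genes as a set.

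**Figure D2:**
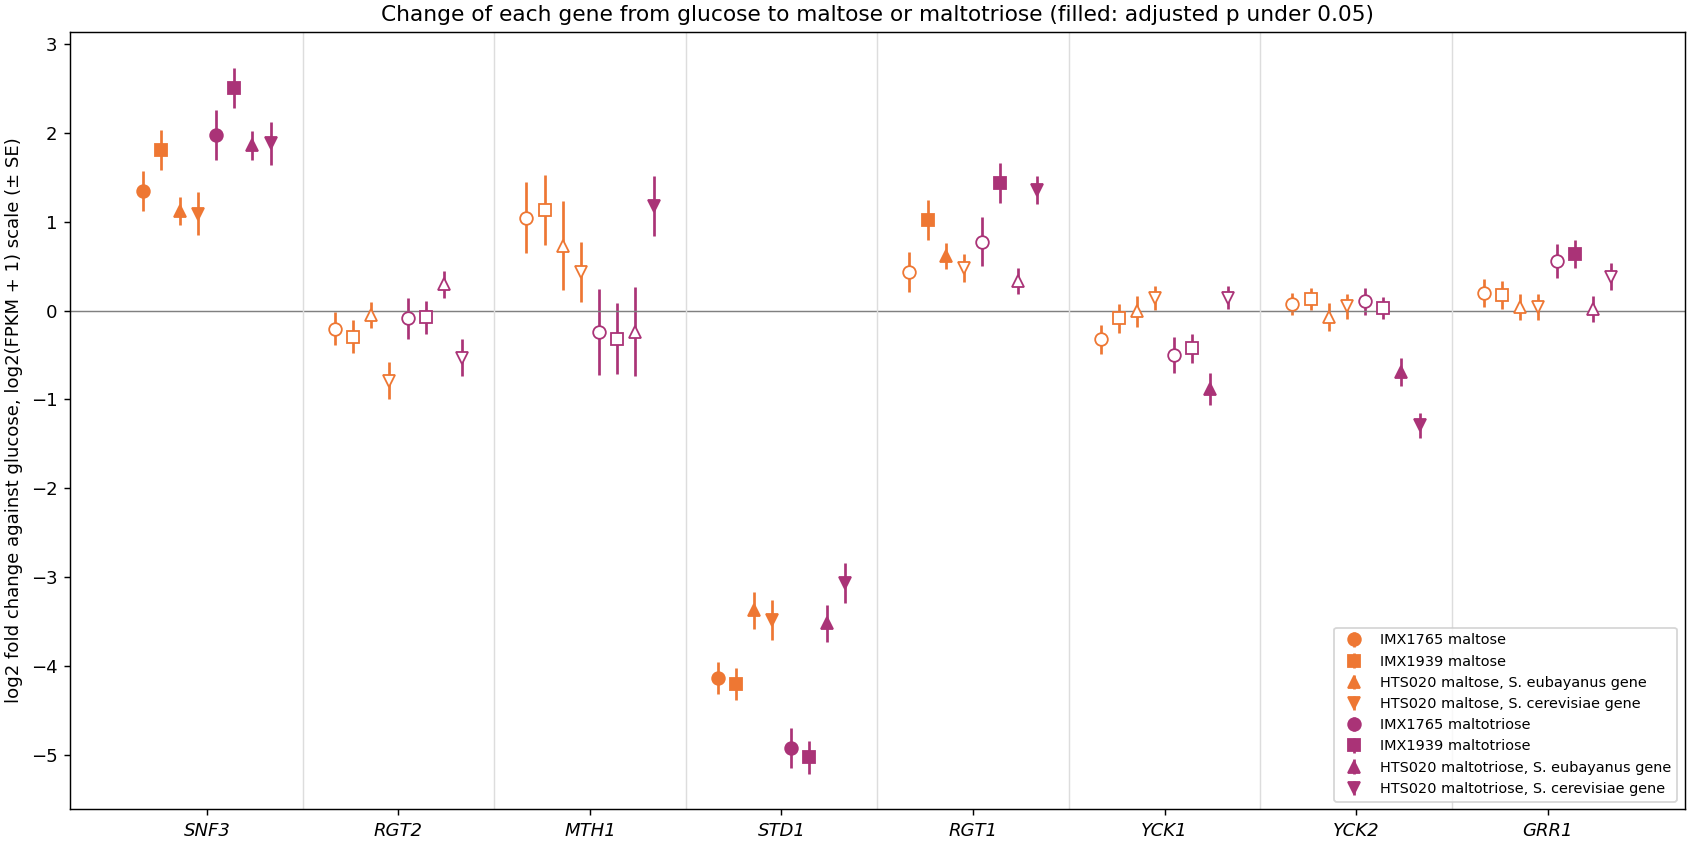
Differences on the log2(FPKM + 1) scale for the 8 genes in each comparison of maltose or maltotriose with glucose. The standard error is drawn as a bar, and points are filled where the adjusted p was under 0.05. The maltotriose points of IMX1765 rest on 1 library. STD1 lies between -3.07 and -5.03 and SNF3 between 1.09 and 2.51 in every comparison with glucose, in both S. eubayanus strains and in both copies of the hybrid.

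Genes known in S. cerevisiae as targets of Rgt1 were given by a list of 9 (HXT1, HXT2, HXT3, HXT4, HXT8, HXK2, MIG2, YKR075C and YOR062C). In IMX1765, 4 of the 9 fell and 1 rose on maltose, and 5 fell and 1 rose on maltotriose. In IMX1939, 5 fell and 1 rose on maltose, and 7 fell and 1 rose on maltotriose. Of all genes tested, 17.9% were called in IMX1765 on maltose and 28.7% on maltotriose. In IMX1939 these shares were 26.1% and 52.3%, and the counts of each list are to be read against them. On maltose the low-affinity transporter gene HXT3 had log2 differences of -8.65 in IMX1765 and -8.47 in IMX1939 (SE 0.17 in each), and HXT1 had -5.91 and -6.92 (SE 0.89 in each). The member that rose was in each case HXT8, by 5.96 and 6.36 on maltose (SE 0.16 in each), so the list did not move as one. Medians over the list were -1.09 and -1.89 on maltose and -2.03 and -2.82 on maltotriose, where those of all genes lay between -0.05 and 0.10. Both genes of the Mig repressors MIG1 and MIG3 fell in each of these 4 comparisons. The corepressor genes CYC8 and TUP1 fell in IMX1939 on maltotriose, by 0.77 and 0.41, TUP1 without a call by limma voom. They were not called in the other 3 comparisons. Between maltotriose and maltose in IMX1939 neither was called by limma, with log2 values of -0.53 and -0.39 and unadjusted p under 0.05 in both. The difference between IMX1939 and IMX1765 on maltotriose was not tested. None of the 4 genes of Grr1's partners in the ubiquitin ligase (SKP1, CDC53, CDC34, HRT1) was called in these 4 comparisons, with at most 2 at an unadjusted p under 0.05 and none called by limma voom. Of the list of YCK3, HRR25 and AKR1, other casein kinases and the palmitoyl transferase of Yck1 and Yck2, YCK3 rose in IMX1939 on maltotriose by 0.61.

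Between strains on glucose, none of the 8 genes was called. IMX1765 against CDFM21L.1 gave 0 of 8 with limma, where 0.444% of all genes were called, with 1 at an unadjusted p under 0.05. IMX1939 gave 0 of 8 against CDFM21L.1 (2.65% of all genes) and 0 of 8 against IMX1765 (5.7% of all genes), each with 2 at an unadjusted p under 0.05. On maltose, IMX1939 against IMX1765 gave 0 of 8 (0.037% of all genes), with 1 at an unadjusted p under 0.05. The difference between their responses to maltose also gave 0 of 8 (0.37% of all genes), with 0 at an unadjusted p under 0.05. Limma voom on the recovered reads gave 0 of 8 in all 5.

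The lowest adjusted p in these comparisons was that of RGT2. It was 15.8 and 14.1 FPKM in CDFM21L.1 and 21.9 and 32.3 FPKM in IMX1939, a difference of 0.80 ± 0.19 (SE, adjusted p = 0.062) that passed when the first IMX1939 culture was left out (1.06). SNF3 was higher than in CDFM21L.1 by 0.67 ± 0.23 in IMX1765 (adjusted p = 0.30), without overlap of the cultures. YCK2 was higher in IMX1939 than in IMX1765 by 0.34 ± 0.13 on maltose (adjusted p = 0.22), where the median of all genes was 0.13. In the fit of only IMX1765 and CDFM21L.1 on glucose, 4 of the 8 were called, SNF3, RGT2, MTH1 and YCK1. That fit called 1678 of all genes, against 24 in the main fit, so the 4 calls give no result about the 8 genes as a set. SNF3 and RGT2 lie on chromosome 4 and YCK1 on chromosome 15, whose genes had median differences of 0.30 and 0.33 between IMX1765 and CDFM21L.1, while the median was 0.40 on chromosome 9 and between -0.09 and 0.02 on the others. The median of chromosome 4 was also 0.32 in IMX1939. Subtraction of chromosome medians in the main fit added no call among the 8 genes in these comparisons of strains. The part of the medians in the 4 calls of the smaller fit was not tested.

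In hybrid HTS020 both copies of STD1 were lower on the other sugars. SeSTD1, the copy of the S. eubayanus parent, was 20.3 and 28.4 FPKM on glucose, against 1.52 and 1.30 FPKM on maltose and 0.985 and 1.39 FPKM on maltotriose. ScSTD1, the copy of the S. cerevisiae parent, was 22.1 and 32.7 FPKM on glucose, against 1.73 and 1.26 FPKM on maltose and 2.14 and 2.52 FPKM on maltotriose. Neither copy's glucose cultures overlapped with any other, and the 4 means were lower than on glucose by 17.2 ± 4.47-fold and 20.5 ± 6.88-fold for SeSTD1 and by 18.3 ± 6.49-fold and 11.7 ± 3.51-fold for ScSTD1. On the log2 scale the falls were -3.38 ± 0.21 (SE, adjusted p = 0.00017) and -3.52 ± 0.21 (adjusted p = 1.4e-05) for SeSTD1 on maltose and maltotriose, and -3.49 ± 0.22 (adjusted p = 0.00020) and -3.07 ± 0.22 (adjusted p = 3.4e-05) for ScSTD1. None of these was lost under 16 alternatives.

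Both SNF3 copies rose in the hybrid. SeSNF3 was 4.26 and 4.85 FPKM on glucose, against 9.99 and 12.3 FPKM on maltose and 18.4 and 19.9 FPKM on maltotriose. ScSNF3 was 3.20 and 4.92 FPKM on glucose, against 7.78 and 11.8 FPKM on maltose and 18.2 and 16.7 FPKM on maltotriose. The 3 sugars did not overlap for either copy. The rises on maltotriose were 1.86 ± 0.16 (SE, adjusted p = 6.9e-05) and 1.89 ± 0.24 (adjusted p = 0.00042), or 4.21 ± 0.45-fold and 4.30 ± 1.32-fold, and held under each of 16 alternatives. Those on maltose, 1.12 ± 0.16 (adjusted p = 0.0072) and 1.09 ± 0.24 (adjusted p = 0.034), were less secure, since that of SeSNF3 was lost without either glucose culture (adjusted p = 0.087 and 0.055) and that of ScSNF3 under 6 of 16 alternatives (adjusted p up to 0.23), 5 of which left out 1 culture. Both copies rose further from maltose to maltotriose, by 0.74 ± 0.16 (adjusted p = 0.0059) and 0.80 ± 0.24 (adjusted p = 0.023), and the latter lost its call without the first maltose culture or either maltotriose culture (adjusted p up to 0.11).

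The RGT2 copies stood apart on glucose. SeRGT2 was 6.60 and 6.68 FPKM there, 6.40 and 6.35 FPKM on maltose and 9.02 and 7.76 FPKM on maltotriose, and ScRGT2 was 15.0 and 12.0 FPKM, 8.70 and 6.18 FPKM and 9.95 and 8.09 FPKM. ScRGT2 thus had its highest values on glucose, without overlap, but neither its difference on maltose (-0.79 ± 0.21, adjusted p = 0.055) nor that on maltotriose (-0.53 ± 0.21, adjusted p = 0.054) passed the test. Both were at the threshold, and both passed with limma voom (adjusted p = 0.044 in each) and after subtraction of chromosome medians (adjusted p = 0.045 and 0.042). SeRGT2 on maltotriose, 0.29 ± 0.15 (adjusted p = 0.11), passed after rescaling of the libraries (0.43, adjusted p = 0.029).

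The copies of MTH1, RGT1 and the kinase genes parted on maltotriose. SeMTH1 was 15.8 and 53.1 FPKM on glucose, against 40.4 and 59.5 FPKM on maltose and 22.0 and 27.4 FPKM on maltotriose, with no comparison past the test, although that of maltotriose with maltose passed when only these groups were fitted (-0.97, adjusted p = 0.012). ScMTH1 was 23.1 and 50.2 FPKM, 48.6 and 44.5 FPKM and 66.7 and 92.2 FPKM. The glucose cultures differed 3.37-fold for SeMTH1 and 2.18-fold for ScMTH1, each with culture 2 higher. ScMTH1 rose on maltotriose by 1.18 ± 0.34 (SE, adjusted p = 0.017), which fell to 0.63 (adjusted p = 0.066) without the first glucose culture and to 0.95 (adjusted p = 0.12) without the second maltotriose culture.

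SeRGT1 was 8.01 and 6.85 FPKM on glucose, against 12.3 and 11.4 FPKM on maltose and 9.53 and 9.66 FPKM on maltotriose. ScRGT1 was 6.53 and 6.21 FPKM, 8.67 and 9.94 FPKM and 16.3 and 19.7 FPKM. SeRGT1 was thus highest on maltose and ScRGT1 on maltotriose. ScRGT1 rose on maltotriose by 1.36 ± 0.16 against glucose (SE, adjusted p = 0.00027), a 2.82 ± 0.39-fold higher mean, and by 0.88 ± 0.16 against maltose (adjusted p = 0.0025). SeRGT1 rose on maltose by 0.61 ± 0.15 (adjusted p = 0.043), a call lost under 8 of 16 alternatives, 5 of which left out 1 culture (adjusted p up to 0.33). On maltotriose SeRGT1 had 0.33 ± 0.15 (adjusted p = 0.079), which passed after rescaling (0.47, adjusted p = 0.018).

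SeYCK1 was 32.9 and 30.7 FPKM on glucose, against 32.2 and 31.1 FPKM on maltose and 19.8 and 14.2 FPKM on maltotriose, whereas ScYCK1 was between 37.4 and 44.5 FPKM in all 6 cultures. SeYCK2 was 75.4 and 78.6 FPKM, 71.5 and 75.4 FPKM and 54.5 and 41.1 FPKM, and ScYCK2 was 68.9 and 76.9 FPKM, 73.7 and 77.0 FPKM and 32.1 and 26.5 FPKM. SeYCK1, SeYCK2 and ScYCK2 fell on maltotriose against glucose, by 0.88 (SE 0.18, adjusted p = 0.0033), 0.69 (SE 0.16, adjusted p = 0.0063) and 1.29 (SE 0.14, adjusted p = 0.00020). The median of all genes was -0.14 in this comparison, and those of the S. eubayanus chromosomes 15 and 14, which hold SeYCK1 and SeYCK2, were -0.32 and -0.36. After subtraction of chromosome medians SeYCK2 had -0.35 (adjusted p = 0.11), while SeYCK1 and ScYCK2 still passed. The GRR1 copies were between 8.29 and 9.29 FPKM, except for ScGRR1 on maltotriose (12.2 and 10.3 FPKM, 0.38 ± 0.15, adjusted p = 0.053), which passed after rescaling (0.52, adjusted p = 0.012) and with limma voom (adjusted p = 0.032).

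**Figure D3:**
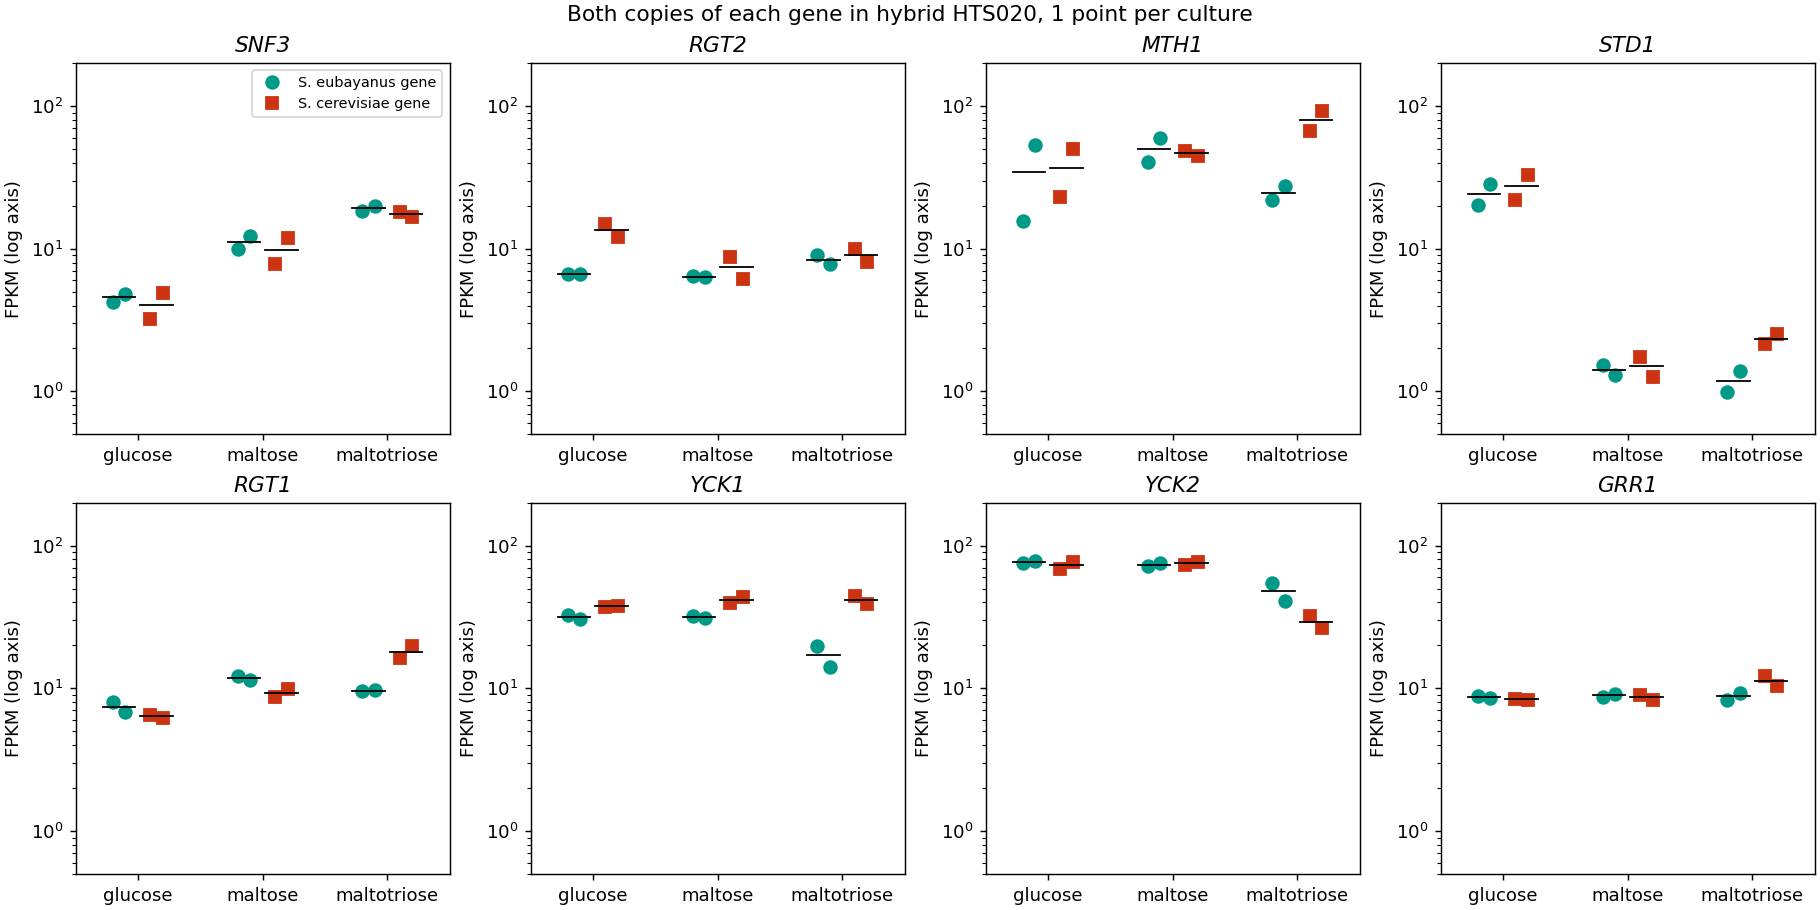
Levels of the 16 gene copies in hybrid HTS020 (FPKM, log axis), with 1 point per culture and a bar at the mean of each group. Both copies of SNF3 are lowest and both of STD1 highest on glucose, whereas on maltotriose SeMTH1 (22.0 and 27.4 FPKM) lies below ScMTH1 (66.7 and 92.2 FPKM) and SeYCK1 (19.8 and 14.2 FPKM) below ScYCK1 (44.5 and 39.0 FPKM).

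Of the 16 copies, 3 rose and 2 fell on maltose, where 11.4% of all 10990 genes tested were called. On maltotriose 4 rose and 5 fell, against a background of 71% of all genes, and between maltotriose and maltose 3 rose and 3 fell, against 64.8%. On maltotriose most of the transcriptome of the hybrid differed, and the share of the 16 copies called was not above that of all genes. The labels give an optical density at sampling of 12.5 for every culture and the methods a higher one on maltotriose than on the other sugars, so whether growth stage differed with the sugar was not tested.

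The list of Rgt1 targets held 16 copies in the hybrid, since HXT1 and HXT8 were analysed for the S. eubayanus subgenome only. Of these, 11 fell and 1 rose on maltose, with a median of -1.79. On maltotriose 9 fell and 5 rose, with a median of -1.94. Among all genes tested, 11.4% were called on maltose and 71% on maltotriose. SeHXT3 had differences of -8.75 on maltose and -8.65 on maltotriose (SE 0.21 in each), and ScHXT4 had -7.43 and -7.14 (SE 0.27 in each). SeHXT8 was again the member that rose on maltose, by 6.26 ± 0.13. The 4 copies of MIG1 and MIG3 all fell on maltose, and 3 fell and 1 rose on maltotriose. The 4 copies of CYC8 and TUP1, the corepressor of Rgt1, were not called on maltose and all fell on maltotriose. SeCYC8 had a mean of 29.5 ± 0.10 FPKM on glucose, 26.1 ± 0.89 FPKM on maltose and 4.43 ± 0.10 FPKM on maltotriose (SD, n = 2 each). Of the 8 copies of Grr1's partners, 5 rose on maltotriose, and of the 6 copies of YCK3, HRR25 and AKR1, 3 fell, shares below the 71% of all genes called there. On maltose none of these 14 copies, nor those of CYC8 and TUP1, was called by limma or limma voom or had an unadjusted p under 0.05.

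Dividing the level of the S. eubayanus copy by that of the S. cerevisiae copy within each culture removes what both copies share. This ratio was tested as log2 after 1 FPKM was added to each level. The test covered the 4615 gene pairs with at least 1 FPKM in each copy. Ratios are printed from the plain levels. Tested shifts are smaller than those of the plain ratios where levels are near 1 FPKM, as for STD1 on maltotriose. On glucose only RGT2 of the 8 pairs departed from equality, with ratios of 0.442 and 0.556, or -0.91 ± 0.14 on the log2 scale (SE, adjusted p = 0.00053), where 59.2% of all pairs did. The ratio of YCK1, 0.880 and 0.814, gave -0.23 ± 0.10 (adjusted p = 0.075). From glucose to maltose no ratio shifted past the threshold in limma (0 of 8, with 1 at an unadjusted p under 0.05), where 4.03% of all pairs did, the nearest being RGT2 at 0.736 and 1.03 on maltose (0.74 ± 0.19, adjusted p = 0.083).

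From glucose to maltotriose 6 of the 8 ratios shifted, against 58.9% of all pairs. The ratio of MTH1 was 0.684 and 1.06 on glucose and 0.331 and 0.297 on maltotriose, a shift of -1.42 ± 0.25 (SE, adjusted p = 0.0015). That of RGT1 went from 1.23 and 1.10 to 0.586 and 0.490 (-1.03 ± 0.17, adjusted p = 0.0010), and that of YCK1 from 0.880 and 0.814 to 0.445 and 0.363 (-1.03 ± 0.14, adjusted p = 0.00041). In these 3 pairs the S. cerevisiae copy gained share, and none of the shifts was lost under any alternative that could test it. The ratio of YCK2 moved the other way, from 1.09 and 1.02 to 1.70 and 1.55 (0.60 ± 0.11, adjusted p = 0.0016). That of RGT2 moved from 0.442 and 0.556 to 0.907 and 0.959 (0.82 ± 0.19, adjusted p = 0.0060; 0.67 with adjusted p = 0.057 without the first glucose culture). STD1 had 0.922 and 0.868 on glucose and 0.461 and 0.552 on maltotriose (-0.45 ± 0.15, adjusted p = 0.032), a call lost when any 1 of the glucose or maltotriose cultures was left out (adjusted p between 0.051 and 0.17). The SNF3 ratio stayed between 0.986 and 1.33 in all 6 cultures, with a shift of -0.03 ± 0.18, and that of GRR1 had -0.36 ± 0.17 (adjusted p = 0.096).

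**Figure D4:**
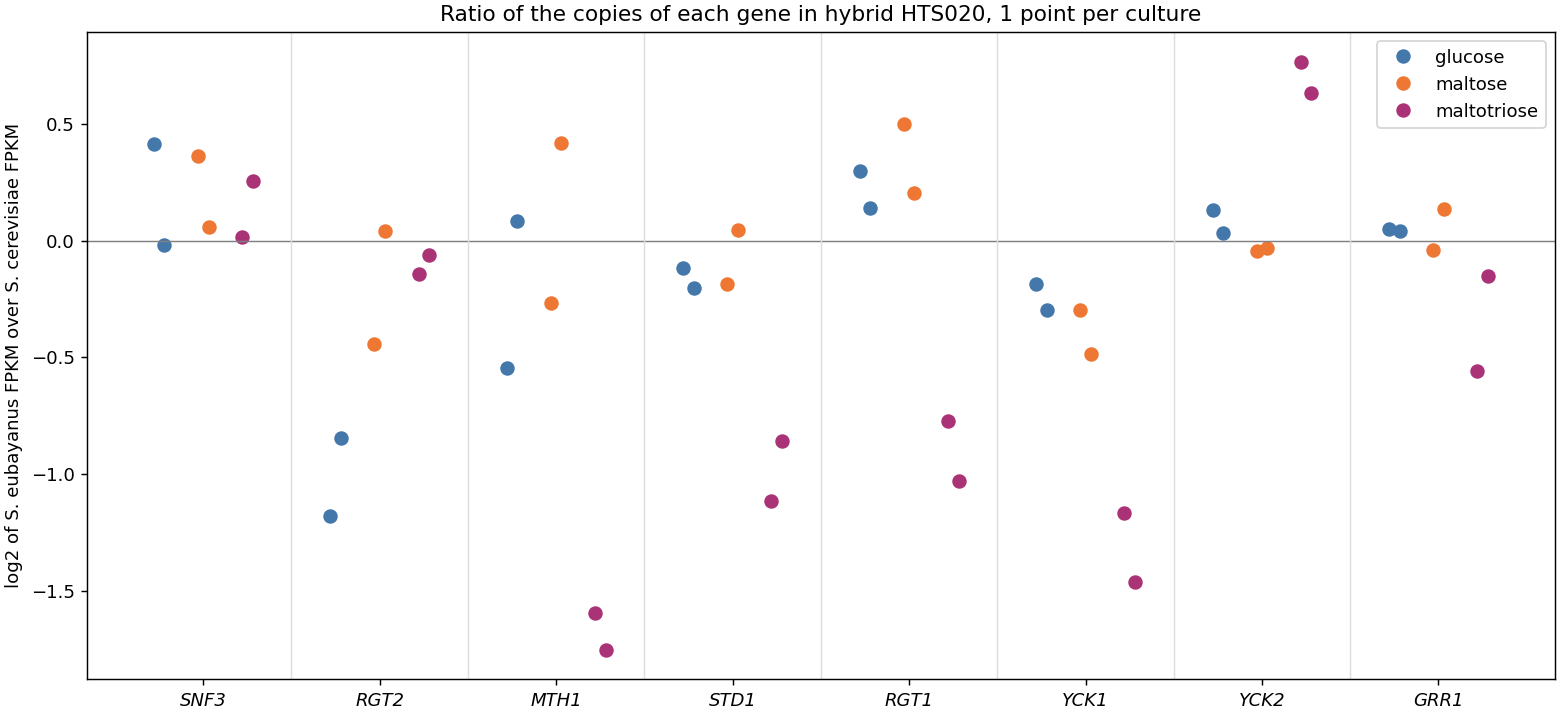
Level of the S. eubayanus copy over that of the S. cerevisiae copy, as log2, for each of the 8 genes in hybrid HTS020, with 1 point per culture and a line at equal levels. The 1 FPKM added to each level for the test is not in these ratios. On maltotriose the ratios of MTH1, RGT1 and YCK1 lie below those on the other sugars and that of YCK2 above them, while RGT2 is lowest on glucose (0.442 and 0.556 before the log).

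The genes whose levels went most closely with STD1 are given as a description, since they share the same sugar groups. Over the 13 deep S. eubayanus libraries and 5406 genes, Pearson's r on log2 levels was 0.991 for IRC7 (2.93 to 76.6 FPKM), 0.990 for ETT1 (23.4 to 156 FPKM) and 0.990 for HXT3 (2.06 to 1556 FPKM). SNF3 ran opposite, with r = -0.963, as did RGT1 with -0.881, while MTH1, the paralog of STD1, had -0.331. Over the 6 hybrid libraries and 10990 genes, SeSTD1 was followed most closely by SeHXT3 (r = 0.997), ScHXT3 (0.994) and ScHXT4 (0.994), and ScSTD1 was sixth in this order (0.989).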

How the data were processed

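RNA was measured in 20 libraries made with TruSeq kits from polyadenylated RNA. According to the methods, the authors mapped reads with a two-pass STAR procedure, removed ambiguously mapped reads, counted them per gene with htseq-count (the submitters' processing notes name featureCounts) and deposited FPKM computed with edgeR, on CDFM21L.1 genes for the S. eubayanus strains and on CDFM21L.1 and CBC-1 genes together for the hybrid. The deposited FPKM thus carry a scaling for depth and gene length. Counts of reads were recovered here from the deposited FPKM, and 100% of values were whole within 0.1 read. The deposited tables of differential expression, holding fold changes and p values, were not used.

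Groups were compared with limma 3.58.1 in R 4.3.3 on log2(FPKM + 1), with a mean of at least 1 FPKM, eBayes with an intensity trend and Benjamini-Hochberg adjustment over all genes. The S. eubayanus fit held 13 libraries and the hybrid fit 6. With 2 cultures per group an exact permutation test of 1 gene cannot go below p = 0.333. Limma therefore borrows its spread from all genes and groups. Each p value sets a difference against this pooled spread between cultures, not against that of the compared groups alone. Sequences were searched and figures drawn with matplotlib 3.10.9, SciPy 1.17.1, pandas 2.3.3 and NumPy 2.4.6 under Python 3.11.15. The procedure was run on simulated reads with 4-fold changes put into genes of at least 5 FPKM. That simulation does not cover levels near 1 FPKM, as of STD1 away from glucose, nor a comparison in which most genes differ. The 8 genes and the lists were chosen with earlier results of these data known, and the text draws on all 8 genes whatever their values, at most 4 genes of a list per comparison, taken by size among those called, and the 3 genes most like STD1. CYC8 levels in the hybrid, the corepressor genes and YCK3 in IMX1939 were chosen after their values were seen. Alternatives were a pseudocount of 0.1, no filter or one at 5 FPKM, rescaled libraries, limma voom on the recovered reads, a replicate block, the compared groups alone, an absolute log2 change of at least 1, chromosome medians subtracted, all 14 S. eubayanus libraries, pairs at 10 FPKM and each culture left out. Voom without the shallow library and crossed blocks were added after seeing the data.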

Additional observations from a re-analysis of the deposited data

Results flagged for a closer look

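In hybrid HTS020 the responses of both copies of a gene to maltotriose differed by a test of the difference itself for 6 of the 8 genes, against 58.9% of all gene pairs. The shift of the S. eubayanus to S. cerevisiae ratio is given as log2 with 1 FPKM added to each level. It was -1.42 for MTH1, -1.03 for RGT1, -1.03 for YCK1 and -0.45 for STD1. For RGT2 it was 0.82 and for YCK2 0.60. The shifts of MTH1, RGT1 and YCK1 kept their call under every alternative that could test them, and that of STD1 rested on all cultures of the comparison.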

How the results depend on the processing

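Of the 152 values of the 8 genes over all comparisons, 40 were called and 20 of these under every alternative, and no called value changed its sign. Leaving out 1 culture at a time ended 36 calls and made 33 new ones among 1464 values, and the other alternatives ended 27 and made 44 among 1684. The number of the 8 genes called in IMX1765 on maltotriose against glucose, 2, was 5 with only the groups compared, 1 with all 14 libraries and 2 to 4 with a culture left out. In IMX1939 on maltotriose against maltose it was 2, and became 0 with only the groups compared, 1 with voom, 1 at an absolute log2 change of at least 1, 0 with all 14 libraries and 0 to 4 with a culture left out. For IMX1765 against CDFM21L.1 it went from 0 to 4 with only the groups compared, and for IMX1939 against CDFM21L.1 from 0 to between 0 and 1 with a culture left out. For HTS020 on maltose the 5 of 16 became 3 with only the groups compared and 2 to 7 with a culture left out, and on maltotriose against maltose the 6 became 1 at an absolute log2 change of at least 1. The 1 ratio called on glucose, that of RGT2 (-0.91), became 0 at that limit, 2 with chromosome medians subtracted and 1 to 2 with a culture left out. At 10 FPKM none of the 4 pairs tested was called, and RGT2 was not among them, since SeRGT2 reached at most 9.02 FPKM. The shift of ratios on maltose went from 0 to between 0 and 1 with a culture left out. That on maltotriose went from 6 to 3 at the log2 limit, 3 of the 4 pairs tested at 10 FPKM and 4 to 6 with a culture left out. The log2 limit ends calls of smaller changes by definition, and the filter at 10 FPKM leaves lower pairs untested. The cause of the other changes was not tested. Calls of all genes also moved under several of these settings, as given below, and the counts give no result about the 8 genes as a set.

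Over all genes, the calls with only the groups compared were 1849 against 965 for IMX1765 on maltose, 3819 against 1554 on maltotriose, 1678 against 24 for IMX1765 against CDFM21L.1, 851 against 1410 and 1177 against 2825 for IMX1939 on maltose and on maltotriose, 19 against 729 for maltotriose against maltose, and 831 against 1258 for HTS020 on maltose. With all 14 libraries they were 334 for IMX1765 and 80 for IMX1939 in these maltotriose comparisons, and with voom, which also took in that library, 933 and 396. Voom without it gave 1494 and 746, within 1.5 times of the 1554 and 729 reported. Rescaling moved the median of all genes from 0.10 to -0.02 in IMX1939 on maltose and from -0.14 to 0.00 in HTS020 on maltotriose, where the share of calls that were rises went from 76.3% to 58.6% and from 44.1% to 50.1%, with no called value of the 8 genes lost. Cultures share only a replicate number: deviations of same-numbered cultures correlated between -0.46 and 0.70, and between 0.57 and 0.70 among the groups of IMX1939. Under a replicate block in limma, 4 of the 8 genes were called in IMX1939 on maltose, with MTH1 added (adjusted p = 0.041), against 30.1% of all genes. Between maltotriose and maltose 3 were called, with SNF3 added (adjusted p = 0.024), against 24.5% of all genes (1323). In HTS020 the block called 10 of 16 copies on maltotriose against glucose and 7 of 16 against maltose. It called 69.8% and 63.7% of all genes there. A block with crossed numbers called 2 genes for IMX1939 against CDFM21L.1, where the same block uncrossed called 1, and 6774 for HTS020 on maltotriose against maltose, where it called 5974.

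Depth limits STD1 away from glucose, where it rests on 10 to 62 reads in the S. eubayanus strains, and every value of the first maltotriose library of IMX1765. With 2 cultures per group, a p that misses the threshold does not show that levels are alike.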
